A study of Mus musculus with 12 samples.

Results

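The 5 muscarinic acetylcholine receptor genes, Chrm1 to Chrm5, were taken by symbol from a table of 41743 genes measured by RNA-seq in whole mouse hippocampus. Male C57Bl/6 mice aged 12 weeks received vehicle (control) or a mixture of Gulf War toxicants under the skin on weekdays for 2 weeks, and hippocampi were taken when dosing ended. The mixture held pyridostigmine bromide at 2.5 mg/kg and chlorpyrifos at 12.5 mg/kg, which both inhibit cholinesterase, the chlorpyrifos through its oxon metabolite, and the insect repellent DEET at 7.5 mg/kg. The labels give 6 samples a group, each from a different animal. The columns of control 4 and control 5 were identical in all 41743 genes, so they were counted once, as control 4-5, leaving 5 control and 6 toxicant libraries.

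Muscarinic receptors are G protein-coupled receptors for acetylcholine, which reaches the hippocampus mainly through fibres from the medial septum and diagonal band. The receptors encoded by Chrm1, Chrm3 and Chrm5 couple to Gq/11 proteins, which activate phospholipase C-beta, raise calcium and close the potassium channels of the M-current. Those encoded by Chrm2 and Chrm4 couple to Gi/o proteins, which restrain adenylyl cyclase and open GIRK potassium channels. A cholinesterase inhibitor lets acetylcholine persist at these receptors, and the comparison asks whether their transcripts, and those of the genes they signal through, differed after exposure.

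The genes lie apart in the genome, except that Chrm4 and Chrm5 share a chromosome. In GRCm38 (GENCODE M21) Chrm1 (ENSMUSG00000032773) spans chromosome 19 from 8663789 to 8683587 on the plus strand with 3 exon blocks. Chrm2 (ENSMUSG00000045613) spans chromosome 6 from 36388084 to 36528414 on the plus strand, with 4 blocks. Chrm3 (ENSMUSG00000046159) covers 485362 bases of chromosome 13, from 9875486 to 10360847 on the minus strand, with 6 blocks. Chrm4 (ENSMUSG00000040495) and Chrm5 (ENSMUSG00000074939) lie on chromosome 2, from 91927249 to 91928688 on the plus strand and from 112479171 to 112480769 on the minus strand. Both are modelled there as 1 exon of coding length, 1440 and 1599 bases, against exon lengths of 6053 to 6487 bases for the other members, so untranslated parts of Chrm4 and Chrm5 lie outside these models. Since RPKM divides by that length, levels of these 2 genes rest on their coding part alone. Opposite-strand genes share 329 exon bases with Chrm1 (Gm22820) and 142 with Chrm2 (9330158H04Rik). Their means of 0.0390 and 0.0291 RPKM were far below those of the receptor genes.

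RefSeq promoter entries (GRCm38.p6) matched 4 of the 5 members: Chrm2, Chrm3, Chrm4 and Chrm5. The starts are those of the entries, and whether transcription begins there in hippocampus was not tested. The 100 bases before each start are shown because the 4 genes differ widely in CpG content there, with CpG dinucleotides in capitals and each sequence 5′ to 3′ on the gene's own strand.
Chrm3, chr13:10360804-10360903, minus strand: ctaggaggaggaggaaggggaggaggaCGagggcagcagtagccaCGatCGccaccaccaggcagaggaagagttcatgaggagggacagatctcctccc
Chrm4, chr2:91922089-91922188, plus strand: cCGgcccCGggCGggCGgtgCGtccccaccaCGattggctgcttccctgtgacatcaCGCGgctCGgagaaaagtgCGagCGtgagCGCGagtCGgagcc
Chrm2, chr6:36387984-36388083, plus strand: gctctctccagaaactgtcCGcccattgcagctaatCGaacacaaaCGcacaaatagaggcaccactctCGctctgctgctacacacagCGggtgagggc
Chrm5, chr2:112480818-112480917, minus strand: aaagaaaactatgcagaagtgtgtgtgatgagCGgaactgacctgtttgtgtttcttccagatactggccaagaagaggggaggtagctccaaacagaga

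Over the 250 bases before the start, Chrm4 held 26 CpG and was 70% G or C, Chrm2 held 12 (50%), Chrm3 held 10 (61.2%) and Chrm5 held 2 (37.6%). The median over the promoters of 27025 genes was 6 CpG. The GC box GGGCGG, a short site of Sp family factors, was found on either strand 3 times for Chrm4, 1 time for Chrm2 and not in the windows of Chrm3 and Chrm5, while 32.9% of all promoters held it. Neither the cAMP response element TGACGTCA (1.62% of all promoters) nor the TATA box TATAAA (13.0%) was in any of the 4 windows on either strand. Of the 4, Chrm4 was the richest in CpG, and 90.8% of all promoters held fewer.

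Reads could be recovered from the RPKM steps, since 98.5% to 98.7% of the nonzero values checked, times gene length, came to whole reads within 0.05 reads. The libraries held 21.5 M to 34.9 M reads behind the scale, and 76.8% to 89.5% of them were counted on annotated genes. That share was 78.4% to 89.5% in control and 76.8% to 83.8% in toxicant libraries. Whether reads in introns entered that share is not known here. Control 2 stood apart from the other controls, which were at 83.1% or above. The summed level of 7 nuclear-retained RNAs (Malat1, Meg3, Neat1, Snhg11, Rian, Miat and Mirg) was 870 RPKM in control 2, 141 to 549 RPKM in the other controls and 342 to 814 RPKM in toxicant libraries. Hippocampal markers were present: the 5 CA1 pyramidal markers summed to 99.4 to 175 RPKM and the 6 dentate granule cell markers to 40.4 to 78.2 RPKM. Markers of cholinergic neurons (Chat, Slc18a3 and Slc5a7 among them) summed to 0.111 to 0.403 RPKM, near 0 in every library.

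Chrm1 was the most abundant muscarinic transcript, and Chrm1 and Chrm3, which both encode Gq/11-coupled receptors, had the lower values in toxicant hippocampi. Their log2 fold changes were -0.35 and -0.43. Chrm4 had a smaller difference of -0.15, and Chrm2 and Chrm5, the rare members, had differences of 0.09 and 0.12 in the other direction. None of the 5 passed the test over all genes, which called 0% of the 13493 genes tested in either direction (limma with Benjamini-Hochberg adjustment; threshold 0.05). At an unadjusted p under 0.05, limma gave 2288 genes lower (17.0%), Chrm1 and Chrm3 among them, and 449 higher (3.33%), with no member among them. The median log2 fold change over all tested genes was -0.11, and 70.0% of them were lower in toxicant libraries, so the members' values are to be read against that shift.

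In this whole tissue, fewer cells of a type and less RNA per cell cannot be told apart. Chrm1 encodes the main muscarinic receptor of hippocampal pyramidal neurons. In RPKM, its level was 39.8 in control 1, 24.8 in control 2, 33.8 in control 3, 30.4 in control 4-5 and 34.4 in control 6. Toxicant libraries ran from 21.8 to 28.5 with a median of 26.4 RPKM. All 6 toxicant libraries lay under the control median, and 4 of 5 controls lay above the highest toxicant library, while control 2 fell inside the toxicant range. The control mean was 32.7 ± 5.55 RPKM (SD, n = 5) and the toxicant mean 25.4 ± 2.84 RPKM (SD, n = 6). The log2 fold change of Chrm1 was -0.35 ± 0.12 (SE; 95% interval -0.61 to -0.09; limma adjusted p = 0.217), and the exact permutation p was 0.0281 (two-sided, unadjusted), where 0.00216 is the smallest the design allows. With 3135 to 7777 reads per library, counting error was 1.26% to 1.57% of the mean, against a spread between libraries of 11.2% to 17.0%.

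Chrm3 encodes a Gq/11-coupled receptor best known from smooth muscle and glands that is also present on forebrain neurons. Its level was 9.06 RPKM in control 1, 6.60 in control 2, 8.67 in control 3, 7.18 in control 4-5 and 7.30 in control 6. Toxicant libraries ran from 4.27 to 7.31 RPKM with a median of 5.59. Of the 6 toxicant libraries 5 lay below the lowest control, and toxicant 1, at 7.31 RPKM, lay among the controls. The means were 7.76 ± 1.05 RPKM (SD, n = 5) and 5.67 ± 1.00 RPKM (SD, n = 6). The log2 fold change was -0.43 ± 0.12 (SE; 95% interval -0.69 to -0.17; limma adjusted p = 0.199) and the exact permutation p was 0.0130, unadjusted. In the distribution over all tested genes, 1.45% had a log2 fold change as low as that of Chrm3 and 3.36% one as low as that of Chrm1. Complete separation, with every toxicant library below every control, occurred in 2.03% of genes and the reverse in 0.111%, and no member showed either.

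Chrm5 encodes the third Gq/11-coupled receptor, known mainly from dopamine neurons of the midbrain and from brain vessels. It had 13 to 38 reads per library. Its level was 0.839 RPKM in control 1, 0.469 in control 2, 0.501 in control 3, 0.299 in control 4-5 and 0.538 in control 6, and ran from 0.379 to 0.794 with a median of 0.688 in toxicant libraries. The highest and the lowest library were both controls, and the groups overlapped throughout. Exact Poisson 95% intervals, which cover counting error only, were 0.594 to 1.15 RPKM for control 1 and 0.164 to 0.502 RPKM for control 4-5. The log2 fold change was 0.12 ± 0.15 (SE; 95% interval -0.19 to 0.43; limma adjusted p = 0.561), and the exact permutation p was 0.437. Counting error was 20.0% of the mean in control and 20.1% in toxicant libraries, and the spread between libraries was 37.0% and 27.8%.

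Of the Gi/o-coupled members, Chrm4 encodes a receptor best known from the striatum that also sits on glutamatergic terminals of the hippocampus. Its level was 6.82 RPKM in control 1, 4.62 in control 2, 7.12 in control 3, 4.51 in control 4-5 and 6.99 in control 6, and 4.06 to 6.65 with a median of 5.53 in toxicant libraries. Controls 1, 3 and 6 lay above the highest toxicant library, and controls 2 and 4-5 lay near the low end of the toxicant range. The log2 fold change of Chrm4 was -0.15 ± 0.15 (SE; 95% interval -0.47 to 0.17; limma adjusted p = 0.483), with an exact permutation p of 0.351. The means were 6.01 ± 1.33 RPKM (SD, n = 5) and 5.34 ± 0.916 RPKM (SD, n = 6), from 145 to 351 reads per library. The 6 striatal markers (Drd1, Drd2 and Adora2a among them) summed to 14.7 to 35.3 RPKM in control and 14.5 to 22.1 RPKM in toxicant libraries, and their part in the values of Chrm4 was not tested.

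Chrm2 encodes the receptor found on cholinergic terminals, where it limits acetylcholine release, and on hippocampal interneurons. Its level was 0.548 RPKM in control 1, 1.01 in control 2, 0.655 in control 3, 0.876 in control 4-5 and 0.607 in control 6, and 0.577 to 0.962 with a median of 0.831 in toxicant libraries. Control 2, the lowest control for Chrm1 and Chrm3, was the highest library of all for Chrm2, and the groups overlapped. The log2 fold change was 0.09 ± 0.12 (SE; 95% interval -0.17 to 0.35; limma adjusted p = 0.610) and the exact permutation p was 0.470. The means were 0.739 ± 0.195 RPKM (SD, n = 5) and 0.810 ± 0.150 RPKM (SD, n = 6), from 75 to 187 reads per library. The 7 interneuron markers (Gad1, Gad2, Pvalb, Sst, Vip, Npy and Lhx6) summed to 239 to 377 RPKM in control and 249 to 343 RPKM in toxicant libraries.

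**Figure D1:**
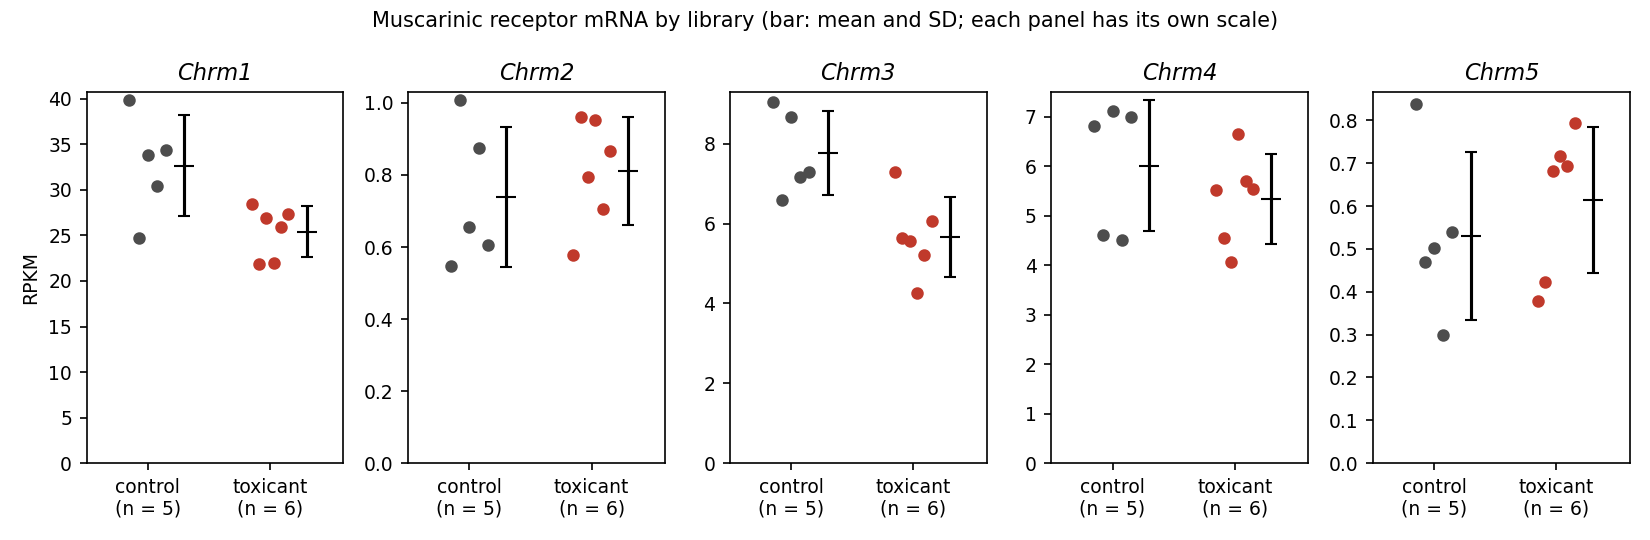
RPKM of each receptor gene (y axis, from 0, own scale in each panel) in 5 control and 6 toxicant libraries; each point is a library, and the bar gives the mean and SD. For Chrm3, 5 of 6 toxicant points lie below the lowest control, while the points of Chrm2 and Chrm5 overlap.

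**Figure D2:**
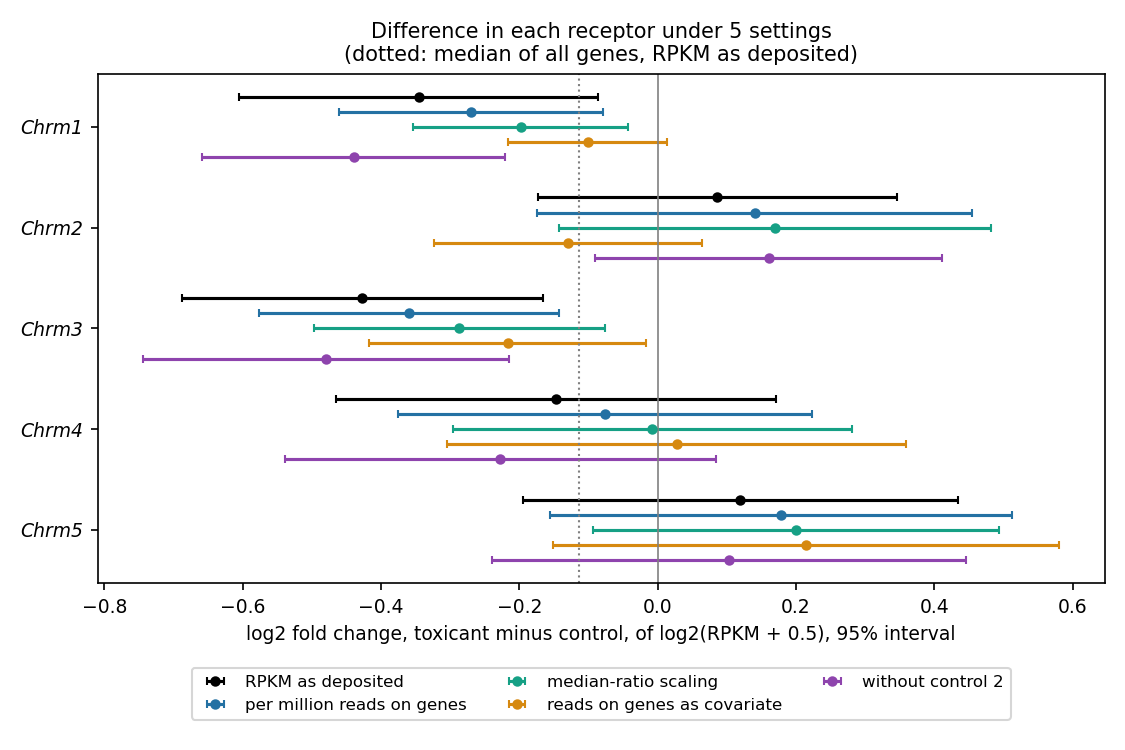
Log2 fold change of each receptor (x axis, toxicant minus control on log2(RPKM + 0.5), with 95% limma intervals) under 5 settings; the dotted line is the median of all genes in the values as deposited. Chrm1 moves from -0.35 to -0.10 and Chrm3 from -0.43 to -0.22 when reads on genes enter as a covariate. In that setting Chrm2 and Chrm4 change sign.

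The calls for Chrm1 and Chrm3 turned on control 2. Without control 2, limma called both lower, Chrm1 at -0.44 (adjusted p = 0.0230) and Chrm3 at -0.48 (adjusted p = 0.0244). In that fit 28.1% of all genes were called lower and 8.56% higher, so calls were common, and the other 3 members were not called. When limma weighted the libraries by their estimated quality, 49.6% of genes were called lower, Chrm1, Chrm3 and Chrm4 (-0.37, adjusted p = 0.00226) among them, and 21.2% higher, Chrm2 (0.21, adjusted p = 0.0165) among them. Chrm1 and Chrm3 were then at -0.41 and -0.40, with adjusted p of 0.000171 and 0.000516.

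The level of Chrm1 followed the share of reads on genes closely. Over the 11 libraries, Pearson's r between log2(RPKM + 0.5) and that share was 0.96 for Chrm1 (Spearman's rho 0.95), 0.86 for Chrm3 (rho 0.86) and 0.58 for Chrm4 (rho 0.52). It was 0.10 for Chrm5 (rho 0.05) and -0.85 for Chrm2 (rho -0.85). These are descriptions of 11 points that share their libraries with the receptor values. With each group's mean removed, r was 0.95 for Chrm1, 0.80 for Chrm3, 0.52 for Chrm4, 0.31 for Chrm5 and -0.89 for Chrm2. Over the 6 toxicant libraries alone, r was 0.94 for Chrm1, 0.84 for Chrm3, -0.77 for Chrm2, -0.14 for Chrm4 and -0.12 for Chrm5. The 5 controls are too few points for a firm value. Among them r was 0.96 for Chrm1, 0.87 for Chrm3, -0.97 for Chrm2, 0.90 for Chrm4 and 0.59 for Chrm5. Without control 1 and toxicant 4, the libraries farthest from the median share, r was 0.94 for Chrm1, 0.73 for Chrm3, 0.85 for Chrm4, 8.1e-05 for Chrm5 and -0.78 for Chrm2. Among all tested genes, 77.5% had an r beyond 0.5 in either direction, and 5.19% had one at least as high as Chrm1.

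Adjusted for that share as a covariate, the log2 fold change of Chrm1 was -0.10 ± 0.05 (SE; limma adjusted p = 0.430) and that of Chrm3 -0.22 ± 0.09 (SE; limma adjusted p = 0.338), where the all-gene median was -0.03. Chrm5 was at 0.21 ± 0.17. In the same fit the sign turned for Chrm2, to -0.13 ± 0.09, and for Chrm4, to 0.027 ± 0.15. Values rescaled to each library's reads on genes gave -0.27 for Chrm1 and -0.36 for Chrm3, with an all-gene median of -0.04. Median-ratio scaling, which placed that median at 0.016, gave -0.20 for Chrm1, -0.29 for Chrm3, -0.0078 for Chrm4, 0.17 for Chrm2 and 0.20 for Chrm5. Chrm1 and Chrm3 were lower in toxicant libraries in each of these fits, and neither passed the adjusted threshold in them.

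**Figure D3:**
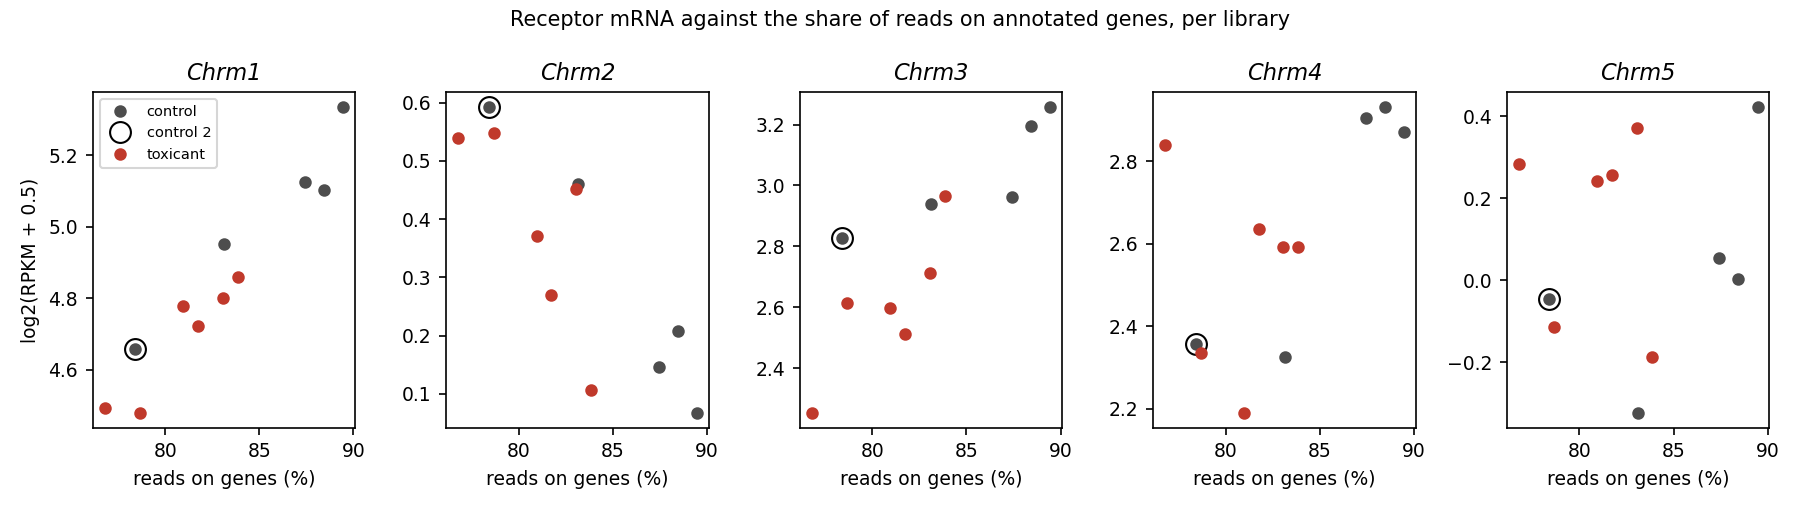
Log2(RPKM + 0.5) of each receptor (y axis) against the percent of reads on annotated genes (x axis), 1 point per library, with control 2 ringed. Chrm1 climbs along the share and Chrm2 descends in both groups, while Chrm4 and Chrm5 show no such order in toxicant libraries.

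Chrm1 made up most of the muscarinic transcript pool in every library. The summed level of the 5 genes averaged 47.7 ± 7.53 RPKM (SD, n = 5) for control and 37.9 ± 3.41 RPKM (SD, n = 6) for toxicant mice, with ranges of 37.4 to 57.1 and 33.4 to 42.3 RPKM that overlapped. Its share was 68.4% ± 1.89 (SD, n = 5) of the control sum and 67.1% ± 2.44 (SD, n = 6) of the toxicant sum. In the same order, Chrm3 made up 16.4% ± 1.15 and 14.9% ± 1.89, Chrm4 12.6% ± 1.53 and 14.2% ± 2.83, Chrm2 1.64% ± 0.709 and 2.18% ± 0.567, and Chrm5 1.10% ± 0.291 and 1.63% ± 0.454. Chrm2 and Chrm4 together, the Gi/o-coupled pair, ranged from 12.4% to 15.3% in control and from 12.8% to 22.0% in toxicant libraries, and the highest of these was toxicant 4, where Chrm4 alone held 19.2%. These shares are given as a description, with no test.

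**Figure D4:**
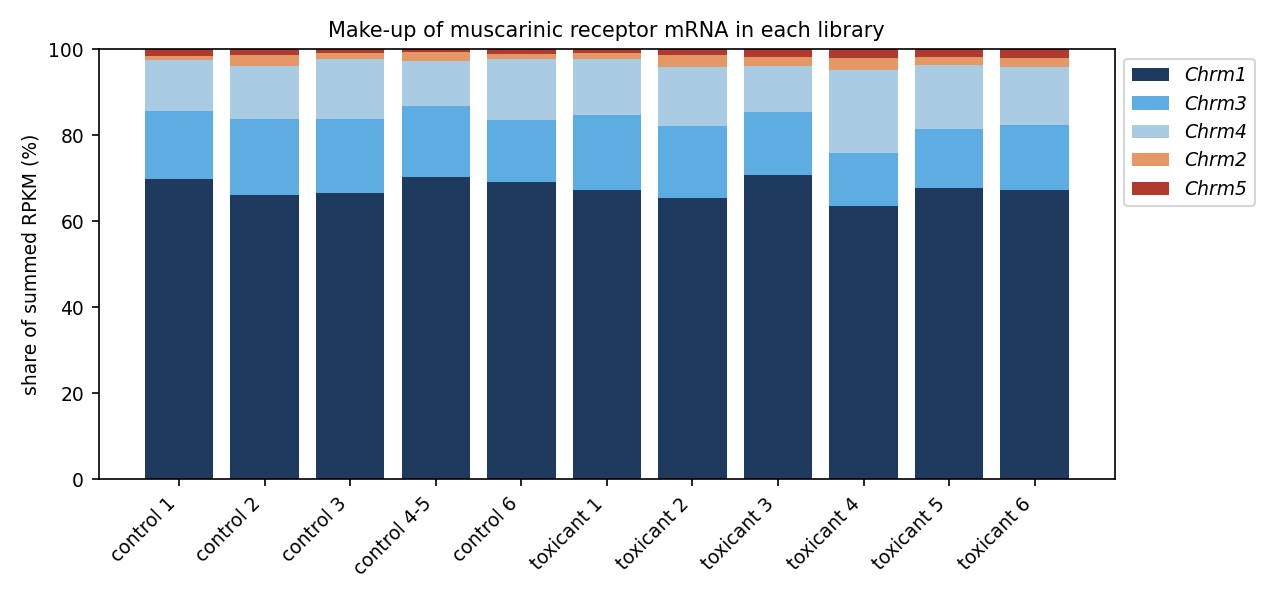
Share of each receptor in the summed RPKM of the 5 genes (y axis, percent) for each of the 11 libraries. Chrm1 fills 63.6% to 70.8% of every bar, and toxicant 4 has the widest Chrm4 segment.

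In level per length, the order was Chrm1, Chrm3, Chrm4, Chrm2 and Chrm5. Chrm1 exceeded Chrm3 in all 11 libraries, by 3.75 to 5.15 times. The ratio of Chrm1 to Chrm3 averaged 4.20 ± 0.385 (SD, n = 5) for control and 4.54 ± 0.550 (SD, n = 6) for toxicant mice. On the log2 scale the groups differed by 0.08 on values with 0.5 RPKM added (exact permutation p = 0.368, two-sided). This ratio does not depend on how a library is scaled apart from the added 0.5, and its groups overlapped, so a difference in response between these 2 receptors was not shown. Chrm3 and Chrm4 were neighbours whose ranges overlapped in both groups: Chrm3 was the higher in 5 of 5 control and 4 of 6 toxicant libraries, by a median of 1.33 and 1.17 times. Chrm4 exceeded Chrm2 in every library, by 4.59 to 12.4 times. Chrm2 and Chrm5 overlapped in range, with Chrm2 the higher in 4 of 5 control and 6 of 6 toxicant libraries.

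The genes with the pattern most like that of a member were found by Pearson's r of log2(RPKM + 0.5) over the 11 libraries, across all tested genes. For Chrm1 these included Nectin4, a cell adhesion gene (r = 0.996), the phosphatase Dusp7 (0.991), Pa2g4 (0.990) and the septin Sept3 (0.990). For Chrm3 they were Sde2 (0.982), the adhesion molecule neuroplastin Nptn (0.978), the microtubule-associated Map4 (0.973), the kinase Hunk (0.971) and Shld1 (0.969). For Chrm2 they were the phosphatase Cdc14b (0.982), Msantd2 (0.970), Spag1 (0.965), Osbpl9 (0.965) and Zfp317 (0.964). For Chrm4 the values were lower: Parm1 (0.920), the striatal regulator of G protein signalling Rgs9 (0.909), the GABA-B receptor auxiliary subunit Kctd8 (0.909), the NMDA receptor subunit Grin3a (0.907) and Xylt1 (0.904). For Chrm5 they were Dlk2 (0.929), Cyp4f15 (0.917), the small nucleolar RNA Snord22 (0.895), Usp35 (0.881) and the proline transporter Slc6a7 (0.870). These are descriptions over libraries that share 1 scale, with no test.

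Among the genes that act with the receptors, 0 passed the adjusted limma test in either direction in each of 7 lists, which were written with earlier results of these data known. The Gq/11 pathway (G protein subunits, phospholipase C-beta, inositol trisphosphate receptors and protein kinase C) had 12 of 15 genes above the filter, 8 lower and 4 higher, with a median log2 fold change of -0.12 against -0.11 for all genes. Plcb1, the phospholipase C-beta isoform that hippocampal muscarinic receptors are known to use, had a control mean of 10.6 ± 2.65 RPKM (SD, n = 5) and a toxicant mean of 13.4 ± 1.82 RPKM (SD, n = 6) (log2 fold change 0.34 ± 0.15, limma adjusted p = 0.234). For Plcb3, another isoform, the log2 fold change was -0.24 ± 0.10 (limma adjusted p = 0.223). Unadjusted, 3 of the 12 were lower at a p under 0.05 and 1 was higher, against 17.0% and 3.33% of all genes.

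The Gi/o pathway list (G protein subunits and adenylyl cyclases) had 16 tested genes, 14 lower and 2 higher, with a median of -0.17, where 70.0% of all genes were lower. At an unadjusted p under 0.05, 3 of the 16 were lower, a share near the 17.0% of all genes. These 3 were adenylyl cyclases. The calcium-stimulated cyclase Adcy1 had a control mean of 62.4 ± 6.24 RPKM (SD, n = 5) and a toxicant mean of 47.8 ± 7.77 RPKM (SD, n = 6) (-0.39 ± 0.12, limma adjusted p = 0.205). For Adcy2 the log2 fold change was -0.31 ± 0.10, and for Adcy8, also stimulated by calcium, -0.36 ± 0.12 (limma adjusted p = 0.207 each).

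Channels that muscarinic receptors modulate stood closer to 0 than the all-gene median: 7 of 14 were lower, against 70.0% of all genes. Their median was 0.0033. At an unadjusted p under 0.05, 1 of the 14 was lower and 0 were higher, against 17.0% and 3.33% of all genes. The lower one was Cacna1a, the pore of P/Q-type calcium channels, with a log2 fold change of -0.20 ± 0.08. The cation channel gene Trpc4 was at 0.12 ± 0.06 and the GIRK subunit gene Kcnj9 at -0.18 ± 0.10.

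Receptor kinases, arrestins and regulators of G protein signalling had 15 of 18 genes lower and a median of -0.09, against 70.0% lower and a median of -0.11 for all genes. At an unadjusted p under 0.05, 3 of the 18 were lower and 1 was higher, against 17.0% and 3.33% of all genes. Rgs14, a regulator enriched in CA2 pyramidal cells, was at 21.6 ± 4.77 RPKM (SD, n = 5) and 16.1 ± 2.06 RPKM (SD, n = 6), a log2 fold change of -0.39 ± 0.15. Rgs10 was at -0.35 ± 0.13, and Rgs17, which acts on Gi/o and Gz proteins, at 0.53 ± 0.20 (limma adjusted p = 0.223 for each of the 3). The kinases Grk2 and Grk3 and the arrestins Arrb1 and Arrb2, which desensitise these receptors, had log2 fold changes of -0.06, 0.016, -0.14 and -0.09.

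On the side of the transmitter, 4 of 9 genes of acetylcholine handling were above the filter. Of these, 3 were lower, against 70.0% of all genes, and the median was -0.14, against -0.11 for all genes. At an unadjusted p under 0.05, 1 of the 4 was lower and 0 were higher, against 17.0% and 3.33% of all genes. The choline transporter-like gene Slc44a1 had a log2 fold change of -0.18 ± 0.07, the acetylcholinesterase gene Ache one of -0.18 ± 0.10 and the choline kinase gene Chka one of 0.21 ± 0.17, with limma adjusted p of 0.221, 0.288 and 0.410.

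Other receptors that use the same G proteins were set beside the members. Of 10 tested Gq-coupled receptors 5 were lower, against 70.0% of all genes, with a median of 0.014. The lysophosphatidic acid receptor Lpar1 was at -0.37 ± 0.11, the serotonin receptor Htr2a at 0.30 ± 0.12 and the glutamate receptor Grm5 at 0.34 ± 0.17, a pair whose values pointed the other way from Chrm1 and Chrm3. Of 20 tested Gi/o-coupled receptors 18 were lower, with a median of -0.15, where 70.0% of all tested genes were lower and the all-gene median was -0.11. In that list the sphingosine phosphate receptor S1pr1 was at -0.24 ± 0.07, the serotonin receptor Htr1a at -0.31 ± 0.10 and the glutamate receptor Grm3 at -0.23 ± 0.07. None of these 6 passed (limma adjusted p = 0.201 to 0.255), and the difference between the members and these lists was not tested.

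**Figure D5:**
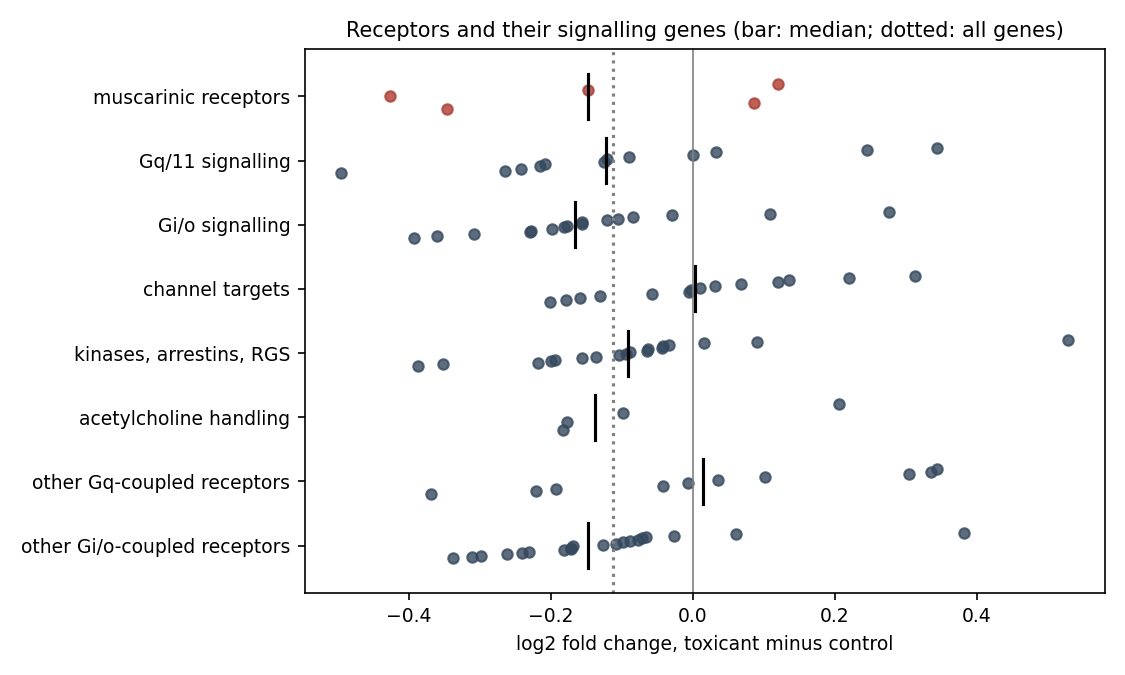
Log2 fold change (x axis, toxicant minus control) of the 5 receptor genes and of the tested genes of 7 lists, 1 point per gene, with the median of each row as a bar and that of all genes (-0.11) dotted. Chrm3 and Chrm1 lie at the left of their row, and the channel targets have a median of 0.0033.

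Of the hippocampal cell markers, the CA1 pyramidal markers, Wfs1, Pou3f1, Fibcd1 and Mpped1 among them, had lower means in toxicant libraries in 5 of 5 cases, where 70.0% of all tested genes were lower. The dentate markers did so in 6 of 6, and the median of their log2 fold changes was -0.35. Of the CA3 markers 3 were lower and 2 higher (median -0.018), and of the interneuron markers 5 were lower and 2 higher (median -0.035). The summed CA1 level was 107 to 175 RPKM in control and 99.4 to 139 RPKM in toxicant libraries, so the groups overlapped, and the lowest control was control 2. Their part in the lower values of Chrm1 and Chrm3 was not tested. The endothelial list (Cldn5, Pecam1, Flt1, Cdh5 and Tek) was the only 1 of 16 marker and RNA lists whose sums did not overlap, at 25.7 to 29.7 RPKM in control and 19.4 to 25.6 RPKM in toxicant libraries. The log2 fold changes of these genes were -0.31, -0.39, -0.21, -0.34 and -0.39, and none passed (limma adjusted p = 0.153 to 0.214). The oligodendrocyte list, whose sums overlapped, had 5 of 6 genes lower and a median of -0.52, against -0.34 for the endothelial list. Among all tested single genes, 2.03% had every toxicant library below every control.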

How the data were processed

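The authors deposited 1 RPKM value per gene and library, per the file headers, that is, reads scaled to gene length and library size. The sources used here do not name the aligner, counting program, build or annotation. Per the labels' protocols, RNA was poly(A)-selected and sequenced as single reads. Whether the kit kept strand is not stated. Columns were matched to samples through the code in each description.

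RPKM times GENCODE M21 exon length gave whole reads within 0.05 reads for 98.5% to 98.7% of nonzero values under 1000 reads, which yielded depth and the share of reads on genes. Testing required a mean RPKM of 0.5 or more over the 11 libraries and was done on log2(RPKM + 0.5) with limma 3.58.1 in R 4.3.3 (eBayes with trend, two-sided, Benjamini-Hochberg over all 13493 genes), a scale that understates changes of low genes. All 5 members passed that filter, so limma applied to each. Single values were also tested by exact permutation. The fit was tested on simulated data. Members, gene lists and tests were chosen with earlier results of these data known. Genes named were the members, any gene called and the 3 smallest p of each pathway list, the 5 genes most like each member without predicted genes and pseudogenes, and the genes of marker lists whose sums did not overlap. Genes named outside that rule (Grk2, Grk3, Arrb1, Arrb2 and the CA1 markers) were chosen after their values were seen. Some genes that the rule names are not reported here. Alternatives were other pseudocounts, filters, scalings, variance models, a replicate block, all 12 deposited libraries, a covariate for the share of reads on genes, voom on recovered reads and leaving out each library. Rescaling to reads on genes, for RPKM and for voom, was added after seeing the data.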

Additional observations from a re-analysis of the deposited data

How the results depend on the processing

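Chrm1 and Chrm3 were lower and Chrm5 higher in toxicant libraries under every alternative run, and no member passed the adjusted threshold except where stated here. Chrm2 and Chrm5 have no value with a filter at 1 RPKM. With a covariate for reads on genes, Chrm2 turned to -0.13 and Chrm4 to 0.027; the cause was not tested. With library weights the values were -0.41 (Chrm1), 0.21 (Chrm2), -0.40 (Chrm3) and -0.37 (Chrm4), all past the threshold, with 9553 genes called. Leaving out each library in turn gave -0.44 to -0.27 for Chrm1 and -0.50 to -0.36 for Chrm3, past the threshold only without control 2, and 0 to 4932 genes called, the upper end again without control 2. With a pseudocount of 0.1, 1 gene was called (Gm24447, named after its values were seen), and with the 12 libraries as deposited 9 genes were. The other alternatives, voom on recovered reads among them, called 0. Same-numbered samples did not deviate together in every pair (correlations -0.30 to 0.62 over 5 pairs). Only control 1 was most like the toxicant library of its own number. Pairing by number was therefore not evident, though 5 pairs are too few to settle it. A replicate block gave -0.35 for Chrm1 and -0.41 for Chrm3, called 0 genes and changed no call. Depth limits the precision for Chrm5 most, with 13 to 38 reads per library.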
